A study of Arabidopsis thaliana with 4 samples.

Results

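The PUB genes of Arabidopsis thaliana encode E3 ubiquitin ligases of the plant U-box type. Their levels were followed in whole seedlings of a CDB1 knockout line and of the Col-0 wild type. Members were taken as every probe set whose single gene symbol in the array annotation is PUB followed by a number. This gave 9 genes, each read by 1 probe set, of 13350 genes that the annotation names singly on the array. They were PUB22, PUB23 and PUB24, which are known to be induced by pathogen elicitors, and PUB15, PUB19, PUB25, PUB26, PUB43 and PUB49. The U-box family is larger than this. Of its genes that the annotation does not name in this way, only MAC3A and MAC3B were read, as an addition.

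An E3 ligase chooses the protein to which ubiquitin is attached, and the U-box is the domain with which a PUB protein holds the ubiquitin-loaded E2 enzyme. PUB22, PUB23 and PUB24 act together as brakes on the immune response set off by microbial patterns such as flagellin, and their transcripts rise quickly after such signals. PUB22 and PUB23 were also studied as brakes on the drought response.

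RNA of whole seedlings was hybridised to 4 Affymetrix ATH1 arrays, 2 of a line labelled as completely lacking CDB1 (genetic background Col-0) and 2 of Col-0, stock N1092. All seedlings were at developmental stage 1.02, grown in a growth room on half-strength MS10 medium (16 h days, 20 °C, humidity 80%), and the labels name no elicitor or stress treatment. The kind of knockout allele is not given. Nothing says that replicate arrays hold separately grown seedlings, so the p-values reflect only array-to-array spread, which could be technical. The annotation used here ties no gene to the name CDB1, so the targeted transcript was not checked.

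Values are MAS5 signals, in arbitrary units on a linear scale, that the authors scaled per array. The array medians were 47.9 to 50.6. On log2(signal + 16) their mean difference was -0.0344, knockout minus wild type. A probe set was tested if its mean over the 4 arrays reached the 30th percentile, a signal of 19.5, which 15924 probe sets did. Fold changes are differences of log2(signal + 16), knockout minus wild type, and understate the change of dim genes. They were tested with limma, with Benjamini-Hochberg adjustment over all 15924 and a threshold of 0.05. The shoot markers LHCB4.1 and RCA and the root markers EXPA7, EXPA18 and PYK10 were all above the floor (5 of the 7 listed markers were named), as the label of whole seedlings has it. The summed signal of the shoot markers was 4494 and 4493 on the knockout arrays, against 4190 and 3859 on the wild type arrays. That of the root markers was 2659 and 2976 on the knockout arrays, against 3046 and 2699 on the wild type arrays. PYK10 made up most of this sum, at 2544.5 and 2859.4 on the knockout arrays, against 2966.6 and 2599.4 on the wild type arrays. The 3' to 5' ratio of the older actin control was 5.01 and 4.85 on the knockout arrays, against 9.42 and 7.24 on the wild type arrays. With the newer actin control it was 2.49 and 1.90 on the knockout arrays, against 1.83 and 2.51 on the wild type arrays. Of the shoot markers LHCB4.1 separated the groups, at 2064 and 1808 on the knockout arrays, against 1518 and 1568 on the wild type arrays, and RCA overlapped. Of the root markers EXPA7 (55.9 and 55.9 on the knockout arrays, against 28.7 and 50.3 on the wild type arrays) and EXPA18 (58.5 and 60.9 on the knockout arrays, against 51.0 and 49.5 on the wild type arrays) read higher in the knockout, and PYK10 overlapped. No marker passed the limma test after adjustment. Of all tested probe sets, 15.0% had both knockout arrays above both wild type arrays. The part of these markers and of the older actin ratio in the values below was not tested.

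No PUB gene passed the test, but 3 of the 8 bright enough to be tested had both knockout signals below both wild type signals. These were PUB22 and PUB23 of the elicitor-induced trio, and PUB19. PUB24 overlapped between the groups, and PUB19, which is not of the trio, was 1.49-fold lower, beside 1.48-fold for PUB23 and 1.26-fold for PUB22. Adjusted limma p-values were under 0.05 for 0 of 8 PUB genes, against 0.320% of all tested probe sets (0.151% lower and 0.170% higher in the knockout). An unadjusted limma p under 0.05 was reached by PUB23 and PUB19, 2 of 8, where 5.24% of all tested probe sets reached it and 2.47% did so with a lower level in the knockout. Both knockout arrays lay below both wild type arrays for 16.9% of all tested probe sets, against 3 of 8 PUB genes, and above them for 15.0%, against 0 of 8. Because whole seedlings were used, fewer cells of a type and less RNA per cell cannot be told apart.

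**Figure D1:**
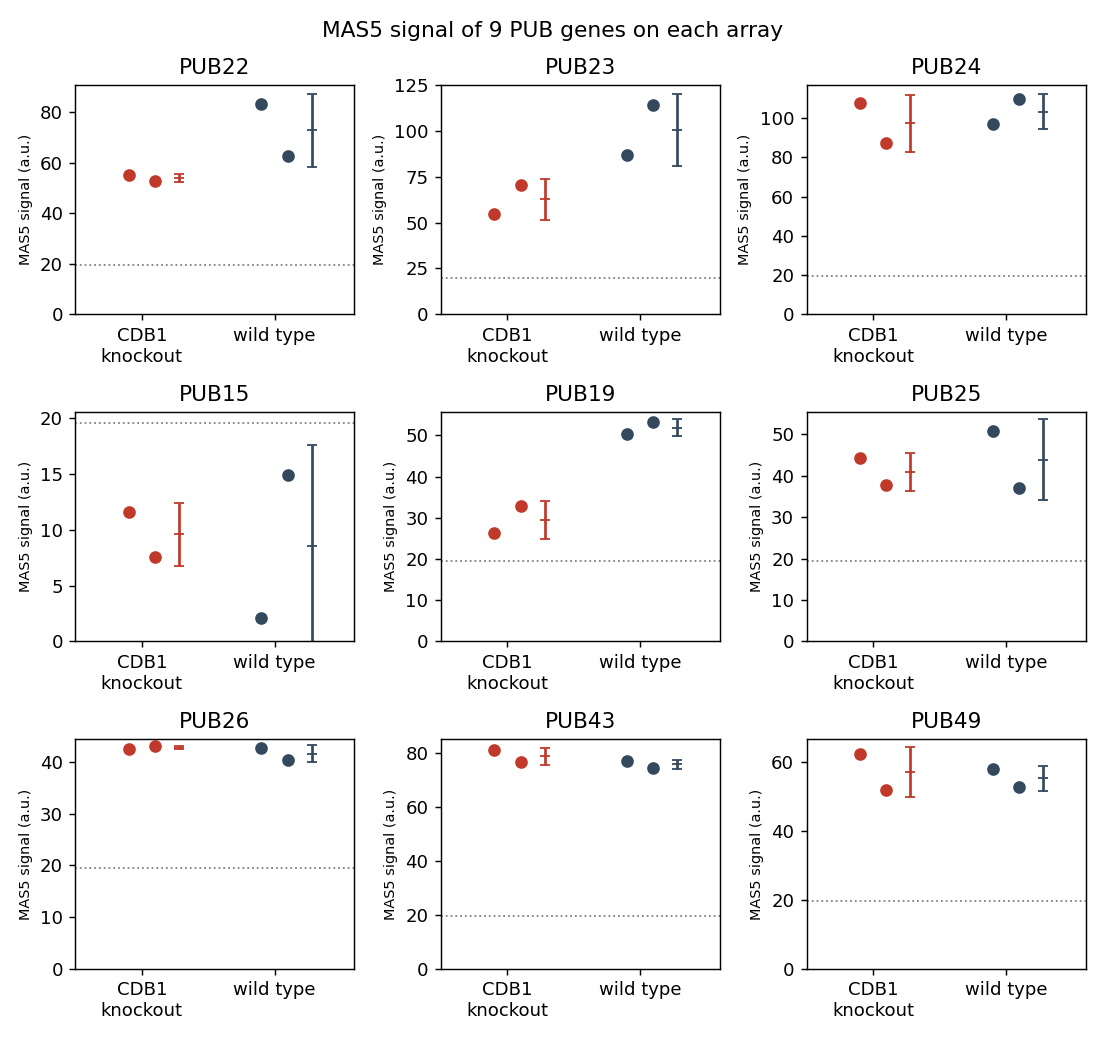
Each panel shows the MAS5 signal (arbitrary units, linear axis from 0) of 1 PUB gene on the knockout (red) and wild type (blue) arrays, with the mean and SD (n = 2) as a bar beside the points and the brightness floor of 19.5 as a dotted line. PUB22, PUB23 and PUB19 have both knockout points below both wild type points, PUB15 lies below the floor, and the other 5 genes overlap.

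PUB23 had a larger difference than PUB22 with all arrays, but not without wild type replicate 2 (-0.39 for PUB23 and -0.50 for PUB22). The PUB23 signal was 54.7 and 70.5 on the knockout arrays, against 86.6 and 114.3 on the wild type arrays. The groups were 16.1 units apart at their nearest, less than the 27.7 units between the wild type arrays. The means were 62.6 ± 11.2 in the knockout and 100.5 ± 19.6 in wild type (SD, n = 2 each). The log2 fold change was -0.56 (SE 0.171, 95% confidence interval -0.94 to -0.19), with an unadjusted limma p of 0.00722 and an adjusted p of 0.462. With a pseudocount of 64 the log2 fold change was -0.38. Of the 15924 tested probe sets, 99 had a lower log2 fold change than PUB23.

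PUB22 is the close relative of PUB23, and its known targets include Exo70B2, a subunit of the exocyst that tethers secretory vesicles. It read 55.0 and 52.9 on the knockout arrays, against 83.2 and 62.6 on the wild type arrays. The knockout arrays were nearly equal, and the wild type arrays were 20.6 units apart, more than the 7.6 units that parted the groups at their nearest. The log2 fold change was -0.34 (SE 0.161, interval -0.69 to 0.02), with a limma adjusted p of 0.979. It rested largely on wild type replicate 1: without that array it was -0.17, and without wild type replicate 2 it was -0.50. In wild type the PUB22 signal was higher on replicate 1 and that of PUB23 on replicate 2.

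PUB24 read 107.7 and 87.2 on the knockout arrays, against 97.1 and 109.7 on the wild type arrays. Its groups overlapped, and the log2 fold change of -0.08 had an interval of -0.42 to 0.26 (limma adjusted p = 0.998), which also holds the value of PUB22. Without knockout replicate 2 the value of PUB24 turned to 0.05. The intervals of PUB24 and PUB23 overlap as well, and no test set the genes of the trio against each other.

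PUB19, which together with PUB18 is known to limit the closing of stomata in response to abscisic acid, was lower in the knockout by about as much as PUB23; which of them had the lower log2 fold change depended on the setting. Its signal was 26.3 and 32.8 on the knockout arrays, against 50.4 and 53.3 on the wild type arrays. Here the groups were 17.6 units apart at their nearest, more than the 6.5 units between the knockout arrays and the 2.9 units between the wild type arrays. The means were 29.6 ± 4.6 in the knockout and 51.9 ± 2.05 in wild type (SD, n = 2 each). The log2 fold change was -0.58 (SE 0.161, interval -0.93 to -0.22), with an unadjusted limma p of 0.00437 and an adjusted p of 0.359. Among tested probe sets, 91 had a lower log2 fold change. PUB19 stayed below 0 in all 11 alternatives that tested it, but it is dim: with a pseudocount of 1 the value was -0.80 and with 64 it was -0.31.

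**Figure D2:**
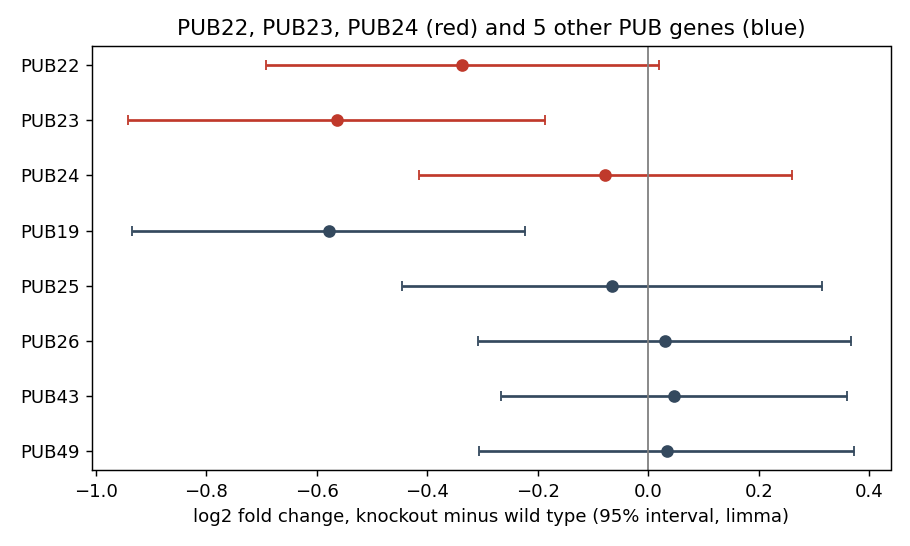
Points are log2 fold changes (knockout minus wild type, on log2(signal + 16)) of the 8 tested PUB genes, and bars are 95% confidence intervals from limma. The intervals of PUB23 and PUB19 lie below 0, that of PUB22 reaches 0.02, and the other 5 hold 0 well within them. No gene passed after adjustment.

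PUB25 and PUB26, close relatives of each other, are known to mark the immune kinase BIK1 for breakdown. PUB25 read 44.2 and 37.7 on the knockout arrays, against 50.8 and 37.0 on the wild type arrays. PUB26 read 42.6 and 43.1 on the knockout arrays, against 42.8 and 40.5 on the wild type arrays. Both pairs of groups overlapped, with log2 fold changes of -0.07 (interval -0.45 to 0.31) for PUB25 and 0.03 (interval -0.31 to 0.37) for PUB26, and the sign of PUB25 turned without knockout replicate 2 (0.02) and without wild type replicate 1 (0.10). The BIK1 transcript read 120.0 and 109.6 on the knockout arrays, against 117.8 and 109.8 on the wild type arrays, a log2 fold change of 0.01 (interval -0.30 to 0.32). The BIK1 protein was not measured.

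PUB43 is the relative of SAUL1, an E3 ligase that holds back senescence. It read 81.0 and 76.5 on the knockout arrays, against 77.0 and 74.4 on the wild type arrays, a log2 fold change of 0.05 (interval -0.27 to 0.36). PUB49, which joins a U-box to a cyclophilin domain, read 62.2 and 51.9 on the knockout arrays, against 57.8 and 52.7 on the wild type arrays. Its log2 fold change was 0.03 (interval -0.31 to 0.37), and it fell below 0 without knockout replicate 1 (-0.07) or without wild type replicate 2 (-0.02). For PUB24, PUB25, PUB26, PUB43 and PUB49 the intervals together ran from -0.45 (PUB25) to 0.37 (PUB49). With 2 arrays a group, a change within its own interval remains possible for each of these genes. That range is no limit of detection, as PUB23 (-0.56) and PUB19 (-0.58) lay outside it and were not called. Among all probe sets called in limma, the smallest change was 0.84 on the log2 scale.

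PUB15 was the 1 member under the brightness floor on every array, with 11.6 and 7.6 on the knockout arrays, against 2.1 and 14.9 on the wild type arrays. It was not tested, and its groups overlapped. With no filter, its log2 fold change was 0.11 (interval -0.51 to 0.73). The neighbouring gene of PUB15 on chromosome 5, AT5G42330, read 47.4 and 35.6 on the knockout arrays, against 12.5 and 8.0 on the wild type arrays (log2 fold change 1.13, limma adjusted p = 0.0361). Its wild type signals were below the floor, so it could be tested only through the knockout arrays, and the test is no support for a change. With a pseudocount of 1 the log2 fold change was 1.93, and with 64 it was 0.51. The adjusted p missed the threshold without knockout replicate 1 (limma adjusted p = 0.683), without knockout replicate 2 (0.155) and when dim probe sets were kept (0.338).

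The genes beside the PUB genes were looked up on assembly TAIR10.1 after the values had been seen. Of the 18 nearest protein-coding neighbours, 9 could be tested by name. None of them passed other than AT5G42330, which reached the floor through the knockout arrays alone, and 0.320% of all tested probe sets passed. Next to PUB23, AT2G35920 read 78.0 and 96.4 on the knockout arrays, against 119.6 and 93.2 on the wild type arrays, so its groups overlapped (log2 fold change -0.24, or -0.40 to -0.09 with 1 array left out). Next to PUB19, AT1G60200 read 75.8 and 85.8 on the knockout arrays, against 80.1 and 73.6 on the wild type arrays (log2 fold change 0.06). Next to PUB25, AT3G19370 read 70.0 and 80.6 on the knockout arrays, against 117.5 and 85.1 on the wild type arrays. Its groups did not overlap, its log2 fold change was -0.35 (-0.15 without wild type replicate 1, -0.55 without wild type replicate 2) and its limma adjusted p was 0.980. The tested neighbours AT3G11830, AT3G11850, AT3G19390, AT1G76380 and AT1G76400 had overlapping groups. Their log2 fold changes ran from -0.09 (AT1G76380) to 0.18 (AT1G76400). Next to PUB22 the 1 neighbour with a named probe set, AT3G52460, was under the floor. The PUB genes themselves lie on chromosomes 1, 2, 3 and 5. PUB22, PUB24 and PUB25 are on chromosome 3 but are not next to each other.

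Taken by group, the median log2 fold change was -0.34 for PUB22, PUB23 and PUB24 and 0.03 for the 5 other tested PUB genes, beside -0.01 for all tested probe sets. These medians are descriptions of 3 and 5 genes and carry no test. Without wild type replicate 1 the median of the trio was -0.17, and that of the other genes turned to -0.07 without knockout replicate 1. The median of the other genes hides PUB19, and the median of the trio hides PUB24. Among all tested probe sets the 5th and 95th percentiles of the log2 fold change were -0.29 and 0.28, so PUB22, PUB23 and PUB19 lay below that range and the other 5 tested PUB genes within it.

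**Figure D3:**
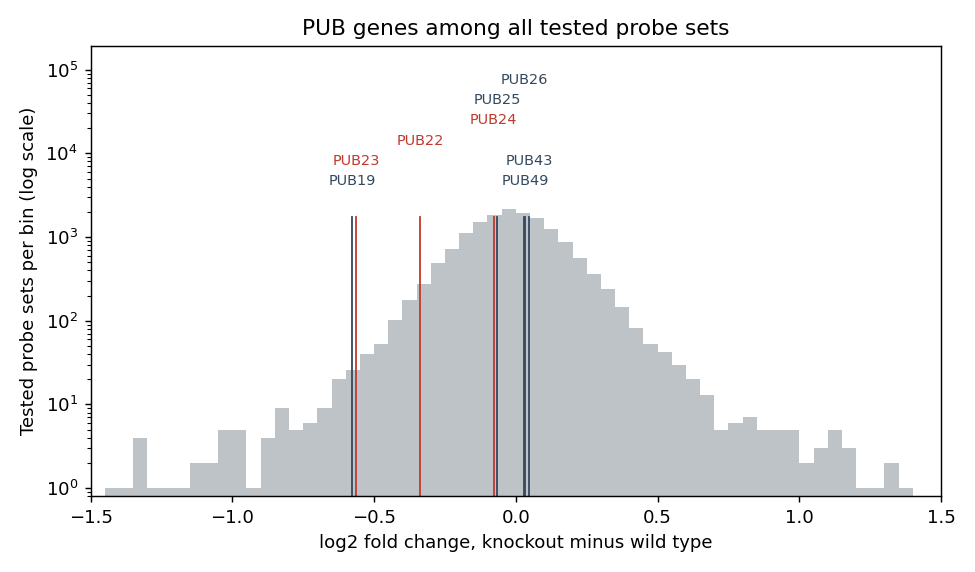
The grey histogram counts the 15924 tested probe sets by log2 fold change (knockout minus wild type) on a log count axis, drawn from -1.5 to 1.5 with 3 probe sets beyond it. Vertical lines mark PUB22, PUB23 and PUB24 (red) and the other tested PUB genes (blue). PUB19, PUB23 and PUB22 stand in the lower tail, at -0.58, -0.56 and -0.34, and the others near the centre.

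Genes of the same pathways were read from lists of known members. Of 43 early elicitor response genes the annotation named 5, and 4 could be tested: 1 fell and none rose, where 0.151% of all tested probe sets fell and 0.170% rose. The median log2 fold change was -0.31, beside -0.01 for all tested probe sets. That median describes 4 genes and carries no test, and the list was chosen with earlier results of these data known. Without wild type replicate 2 the median was -0.17. With the filter at the 50th percentile, for which WRKY53 was too dim, it was -0.51. The gene that fell was STZ, a stress-induced zinc finger repressor, at 573.9 and 552.6 on the knockout arrays, against 1117 and 1194 on the wild type arrays (log2 fold change -1.02, limma adjusted p = 0.0101). Its call was lost without knockout replicate 2 (limma adjusted p = 0.0557) and when dim probe sets were kept (0.148). CML38, a calmodulin-like calcium sensor, read 273.7 and 244.3 on the knockout arrays, against 350.4 and 403.1 on the wild type arrays. Its groups did not overlap, and its log2 fold change of -0.51 missed the threshold (limma adjusted p = 0.355).

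CML37, a relative of CML38, read 6.2 and 5.1 on the knockout arrays, against 18.7 and 17.7 on the wild type arrays, all under the floor, so it was not tested. The defence regulators WRKY22 and WRKY53 had log2 fold changes of 0.16 (interval -0.16 to 0.48) and -0.11 (interval -0.50 to 0.28). WRKY22 was the 1 tested gene of the list above 0, at 80.1 and 80.5 on the knockout arrays, against 66.5 and 74.3 on the wild type arrays. Of the 25 receptor and signalling genes, BIK1 and the receptor EFR were named. Only BIK1 could be tested, and it was not called, where 0.320% of all tested probe sets were. EFR, which senses a bacterial elongation factor, read 2.2 and 11.3 on the knockout arrays, against 12.8 and 4.0 on the wild type arrays, under the floor.

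**Figure D4:**
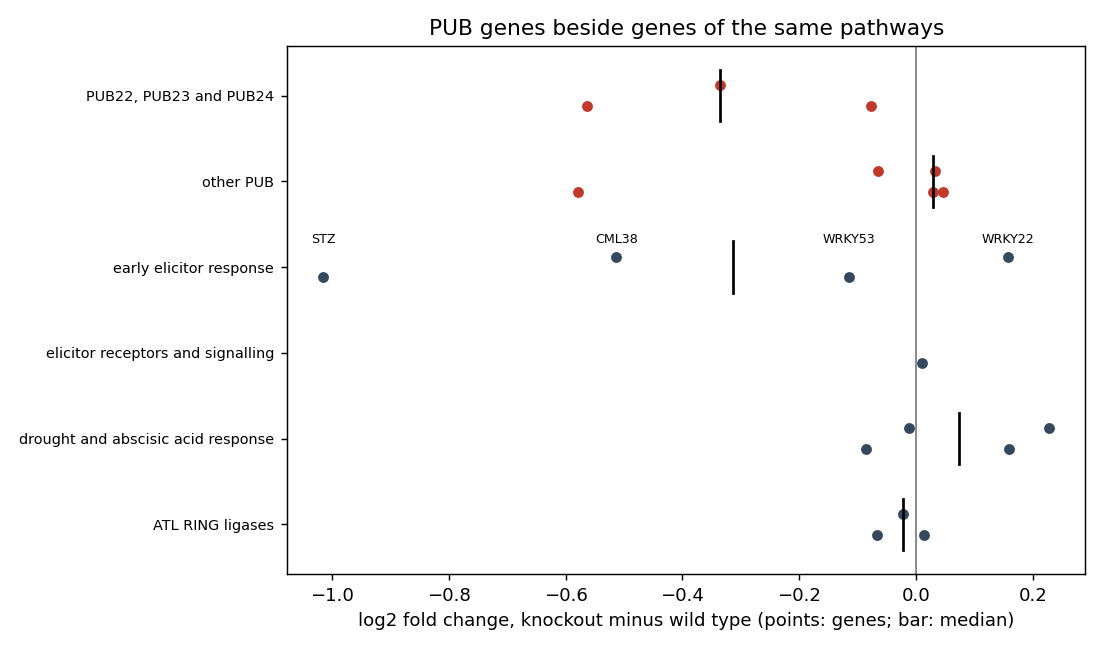
Points are log2 fold changes (knockout minus wild type) of tested genes, grouped by list, with the PUB genes in red, the other lists in blue and a black bar at each median. The early elicitor response genes run from -1.02 (STZ) to 0.16 (WRKY22), and the 3 ATL genes lie between -0.07 and 0.01. Intervals are not drawn, and those of the ATL genes reach from -0.43 (ATL63) to 0.44 (ATL5).

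In the drought and abscisic acid list, 4 of 21 genes were named and tested. None of them passed, where 0.320% of all tested probe sets did. Their log2 fold changes were 0.23 for COR15B, 0.16 for COR15A, -0.09 for COR47 and -0.01 for RPN12a, with a median of 0.07 (-0.04 to 0.14 with 1 array left out). With 1 array left out COR15A ran from 0.04 to 0.28 and COR15B from -0.05 to 0.51. Only COR47 had groups that did not overlap, at 728.8 and 759.2 on the knockout arrays, against 771.8 and 809.5 on the wild type arrays. Of all tested probe sets, 16.9% were lower on both knockout arrays in this way. COR15A, COR15B and COR47 encode proteins that protect cells in cold and dry conditions. RPN12a, a lid subunit of the proteasome and a known target of PUB22 and PUB23, read 305.8 and 284.4 on the knockout arrays, against 294.3 and 300.3 on the wild type arrays. Its interval of -0.31 to 0.28 includes 0, and its groups overlapped. These are transcript values, and the RPN12a protein was not measured.

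Of another class of E3 ligases, the RING type ATL family, 3 genes were named and tested. None of them passed, where 0.320% of all tested probe sets did. ATL8, ATL63 and ATL5 had log2 fold changes of -0.07, -0.02 and 0.01. MAC3A and MAC3B, U-box proteins of a spliceosome-associated complex that the annotation lists under those names, were added after the annotation was seen. MAC3A read 130.9 and 137.2 on the knockout arrays, against 126.6 and 123.5 on the wild type arrays (log2 fold change 0.09). MAC3B read 422.9 and 473.4 on the knockout arrays, against 514.0 and 437.1 on the wild type arrays (log2 fold change -0.08).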

How the data were processed

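The deposited table holds 1 intensity value per probe set on each of 4 arrays (2 CDB1 knockout, 2 Col-0). The authors made these intensities with MAS5, per the submitters' processing notes; no source used here gives its version, settings or detection calls. The number of arrays limits the precision. The 64 control probe sets were left out. Signals were used as deposited, with a pseudocount of 16, and probe sets under the 30th percentile of the mean signal were not tested. The knockout was set against wild type in limma 3.58.1 under R 4.3.3 (lmFit, eBayes with an intensity trend, two-sided, Benjamini-Hochberg over 15924 probe sets). The code was tested on simulated data. With 2 arrays a group the smallest p of an exact permutation test is 0.333, so calls rest on limma's variance, which is shared over probe sets.

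Gene names came from the platform annotation (13513 probe sets with 1 symbol, 503 with several, 8730 not listed), with symbols updated by gene number to RefSeq TAIR10.1; list members were matched by symbol or RefSeq synonym, and the brightest probe set stood for a gene. The rule for named genes was every PUB gene, every list member past the threshold and, per list, the 4 tested members that changed most. The members and lists were chosen with earlier results of these data known. Alternatives were other normalizations, pseudocounts and filters, eBayes without trend, a replicate block and each array left out. 1 planned gene list is not reported here.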

Additional observations from a re-analysis of the deposited data

How the results depend on the processing

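No PUB gene passed the adjusted test under any alternative, the crossed pairing included. PUB22, PUB23 and PUB19 stayed below 0 in every alternative that tested them (PUB19 was too dim for the filter at the 50th percentile, as were PUB25 and PUB26). The ranges were -0.50 to -0.17 for PUB22, -0.74 to -0.38 for PUB23 and -0.80 to -0.31 for PUB19, and the lowest adjusted limma p among them was 0.170, for PUB23 without wild type replicate 1. The median of PUB22, PUB23 and PUB24 ranged from -0.39 to -0.17 with 1 array left out. That of the other PUB genes was 0.0595 after quantile normalization and 0.0644 after median centring, and ran from -0.0686 to 0.0674 with 1 array left out. With 1 array left out PUB24 ran from -0.208 to 0.0531, PUB25 from -0.233 to 0.101 and PUB49 from -0.0686 to 0.135. Signs also turned with 1 array left out for genes beside them: AT1G60200 (-0.0155 to 0.134), ATL5 (-0.258 to 0.287), ATL63 (-0.233 to 0.189), ATL8 (-0.191 to 0.0578), BIK1 (-0.0468 to 0.0680), COR15B (-0.0498 to 0.507), MAC3B (-0.194 to 0.0326), RPN12a (-0.0606 to 0.0387) and WRKY53 (-0.300 to 0.0711). ATL63 turned to 0.0245 after quantile normalization and to 0.0123 after median centring, and RPN12a to 0.0234 after median centring. Median centring takes the same amount, -0.0344, off every log2 fold change. The median of the early elicitor response genes was -0.51 with the filter at the 50th percentile. WRKY53 was too dim for that filter, and the median was then the value of CML38. The causes of the other shifts were not tested.

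The count of called probe sets was 51 with all arrays, 0 with no filter, 89 with a replicate block and 20 to 87 with 1 array left out (87 without wild type replicate 1, 23 without knockout replicate 1, 20 without knockout replicate 2). The count of called genes on the pathway lists was 1 with all arrays, 0 with no filter and 0 to 1 with 1 array left out. The groups share replicate numbers, but nothing says that a number marks a shared batch, and the replicate differences of the groups correlated at -0.301 across probe sets. A crossed pairing of the replicate numbers, added after seeing the data, gave 195 calls as a block, 2 of them on the lists. Each PUB gene has 1 probe set, so taking all probe sets of a gene instead of the brightest was not run. With 2 arrays a group, the smallest change called with all arrays and the pseudocount of 16 was 0.84 on the log2 scale, and PUB15 was too dim to be measured.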
